A study of Mus musculus with 6 samples.

Results

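The genes described here encode channels that carry sodium, calcium or mixed cation currents in neurons. They were taken as the probes, other than controls, whose gene name on the array equals 1 of 35 listed names. These names cover pore-forming and auxiliary subunits of voltage-gated sodium and calcium channels, HCN channels, Trpc channels, and the ryanodine and inositol trisphosphate receptors that release calcium from internal stores. All 35 names, of 35514 gene names in all, were found, on 54 of the 55681 probes of the array, and 34 of the genes gave enough signal to be tested among 32697 genes.

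Total RNA of the mouse primary somatosensory cortex (S1), dissected at postnatal day 7 from C57BL/6 mice, was labelled with Cy3 and hybridised to single-colour whole-genome arrays, 1 array per sample. The 3 control samples carried floxed Lhx2 (Lhx2 f/f), although their sample titles call them wild type. The 3 samples labelled cKO carried Lhx2 f/f with Nex-Cre, so the floxed alleles are common to both groups. The product of Lhx2 is a transcription factor with LIM domains and a homeodomain, and Nex-Cre is a Cre recombinase expressed from the Neurod6 (Nex) gene in newly formed excitatory neurons of the cortex, so interneurons, glia and the thalamic axons that enter S1 are not its target. Whether replicates are separate animals is not stated in the labels, and the p-values then reflect only how far these 6 samples scatter, which may be technical.

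Voltage-gated sodium channels open on depolarisation and drive the rising phase of the action potential, while their auxiliary beta subunits adjust gating and anchoring. Voltage-gated calcium channels couple depolarisation to transmitter release, gene expression and bursting. Their alpha1 subunit forms the pore, and the alpha2delta and beta subunits bring it to the membrane. HCN channels open on hyperpolarisation and carry a pacemaker current, Trpc channels open downstream of receptors coupled to phospholipase C, and ryanodine and inositol trisphosphate receptors let calcium out of the endoplasmic reticulum. In the cortex of a mouse pup these currents shape the early network activity during which the layers of S1 are wired.

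Signals are given as log2 of the processed spot intensity minus log2 of the 75th percentile of the same array, and a difference is the mean of the arrays labelled cKO minus the mean of the controls on that log2 scale. Levels are compared only between arrays, for 1 probe or for a fixed list of genes, never between genes. A summed signal over a list gives most weight to the genes with the brightest probes. The 75th percentile itself lay between 892 and 1067 intensity units, and the share of spots well above background lay between 86.7% and 91.1%, with 0 saturated spots. The Lhx2 probe (chr2:38224933-38224992 on mm9) read 4.43, 4.55 and 4.77 on the arrays labelled cKO and 3.49, 3.50 and 3.44 on the controls, a difference of 1.1 (SE 0.11, adjusted p = 0.073). The targeted gene thus gave more signal under the cKO label. The sources used here do not give the exons flanked by loxP sites, and a probe outside them checks nothing. The samples are therefore called the arrays labelled cKO, and each direction below rests on that label. Of the Cre locus, the Neurod6 probe (chr6:55628006-55628065) differed by 0.38 (adjusted p = 0.534), and the probe of its neighbour Gm3279 (chr6:55644473-55644532) was higher on all 3 arrays labelled cKO, with a log2 difference of 4.35 (adjusted p = 0.035). Normexp background correction gave 2.63 or 2.60 for Gm3279, whose control signal is dim, and its adjusted p was between 0.064 and 0.212 without any 1 array other than control replicate 3. Of the probes of the Y-linked genes Ddx3y and Eif2s3y, 2 were well above background on control replicates 1 and 3 and 0 on the other 4 arrays. Control replicate 3 also stood apart from the other 2 controls, by lower signals of many channel genes and higher signals of striatal markers. Values without it are given for some, not all, of the results that rest on it. Over the whole array, 2 of 32697 genes passed an adjusted p under 0.05 (limma, Benjamini-Hochberg), which is 0.00612%, and both were higher on the arrays labelled cKO. The median difference over all genes was 0.02.

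None of the 34 channel genes tested passed that threshold. The smallest adjusted p among them was 0.073, for Ryr1. Ryr1 did pass under other processing, for example with quantile normalization (adjusted p = 0.041) or with normexp background correction (adjusted p = 0.013), and Ryr3 passed with the latter (adjusted p = 0.020). No channel gene passed with any 1 array left out, a replicate block, a slide row term or a Y-linked signal term. At an unadjusted p under 0.05 there were 8 higher and 3 lower channel genes, together 32.4% of the 34, against 3.19% of all genes higher and 4.35% lower, together 7.54%. The 3 values of each group did not overlap for 13 channel genes. Of these, 10 were higher on the arrays labelled cKO, where 7.17% of all genes were, and 3 were lower, where 6.22% of all genes were; in either direction the share over all genes was 13.4%. By sign alone 21 channel genes were higher and 13 lower, where 18295 of all 32697 genes were higher and 14402 lower. The median difference of the channel genes was 0.09, with a range from -0.35 to 1.02. Differences beyond 0.5 in size were found for 5 of them (14.7%, against 3.73% of all genes), and all 5 were positive: Ryr1, Trpc5, Ryr3, Cacnb2 and Itpr1. Of the others, 19 lay within 0.25 of 0.

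**Figure D1:**
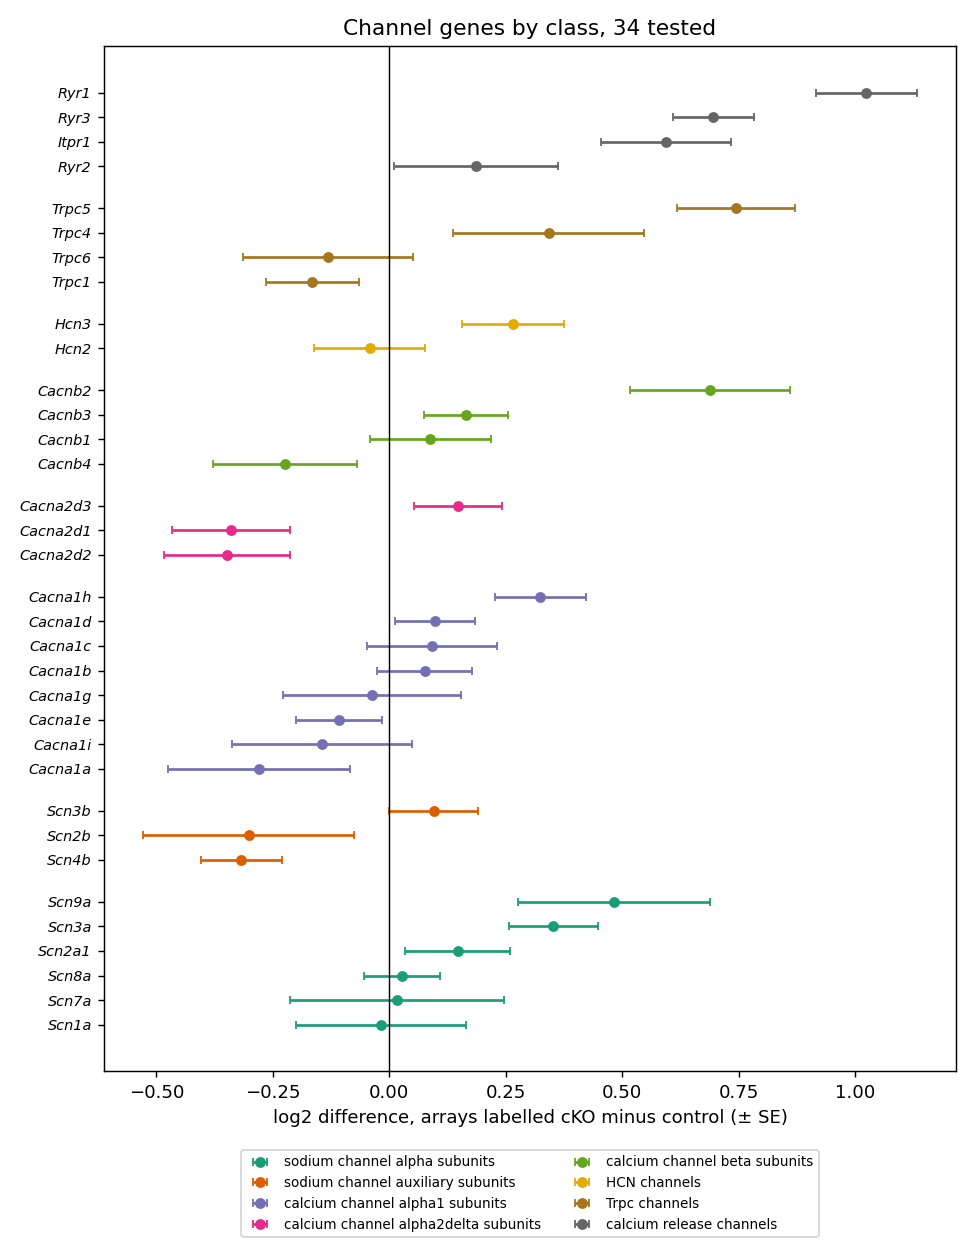
Differences in log2 signal between the arrays labelled cKO and the controls (x axis, ± standard error from limma) for the 34 channel genes tested, grouped and coloured by class (y axis). Ryr1 lies farthest to the right at 1.02, followed by Trpc5, Ryr3, Cacnb2 and Itpr1, and no gene lies below -0.35.

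Of the listed genes, the 4 calcium release channels had the highest class median, 0.64. All 4 were higher by sign, and for 3 of the 4 genes the groups did not overlap. Itpr2 and Itpr3, release channels outside this list, differed by -0.51 without overlap and by 0.03 with overlap. Ryr1 is the ryanodine receptor of skeletal muscle, which is also present in neurons. It read -0.72, -0.65 and -0.64 on the arrays labelled cKO and -1.83, -1.74 and -1.51 on the controls. The groups lay well apart: every array labelled cKO was above every control by more than the range within either group. The difference was 1.02 (SE 0.11, adjusted p = 0.073), a 2.03-fold higher signal. Ryr3, an isoform found in several brain regions, read 0.86, 0.70 and 0.80 against control values of 0.08, 0.12 and 0.07. The 3 control values almost coincided, and the 3 values labelled cKO were again all higher. Its difference was 0.70 (SE 0.09, adjusted p = 0.086), or 1.62-fold. Itpr1 encodes the main inositol trisphosphate receptor of neurons. It read 2.40, 2.63 and 2.66 against 2.08, 2.11 and 1.73, without overlap, with control replicate 3 as the lowest array. The difference was 0.59 (SE 0.14, adjusted p = 0.314), or 1.51-fold, and it was 0.47 without control replicate 3. Ryr2, the cardiac isoform and the most widespread ryanodine receptor of the brain, had overlapping groups, at 1.05, 1.46 and 1.32 against 1.25, 1.26 and 0.76. Its difference of 0.19 (SE 0.18) came to 0.02 without control replicate 3, and lay between 0.10 and 0.30 without any other single array.

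The probes behind these genes and behind the other members with differences beyond 0.5 are 60 bases long, and they are shown because each gene's value here rests on 1 such sequence. Ryr1, the member with the most extreme difference, is printed whole, and the files give no position for it. The first 30 bases are printed for Ryr3 (chr2:112471537-112471596), Itpr1 (chr6:108501025-108501084), Trpc5 (chrX:140816438-140816497) and Cacnb2 (chr2:14907912-14907971), all on mm9. None of these probes shares a run of 20 bases with a probe of another gene.
Ryr1: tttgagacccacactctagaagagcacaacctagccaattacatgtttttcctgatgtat
Ryr3: agctgccatgttttaggtcaatctccaata
Itpr1: gaaccgtatgcagagttccgaagcaagtca
Trpc5: gcattaaagggagactccaaagaattgtta
Cacnb2: tcaaaagctgtttgggtagctgccatctca

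Of the 4 Trpc channels 2 were higher by sign and 2 lower, with a median of 0.11. Trpc5, a receptor-operated channel that restrains neurite extension in cultured hippocampal neurons, read 0.96, 0.89 and 0.66 against 0.17, 0.20 and -0.09. Its groups lay apart, and the lowest array labelled cKO was above the highest control by more than the range of either group. The difference was 0.74 (SE 0.13, adjusted p = 0.168), or 1.67-fold. Trpc5 lies on the X chromosome, and against the single control array without Y-linked signal the difference was 0.63. Trpc4, its closest relative, read 1.60, 2.29 and 2.31 against 1.81, 1.79 and 1.58. Replicates 2 and 3 labelled cKO were above all controls and replicate 1 was not, so the groups overlapped. The difference of 0.34 (SE 0.21, adjusted p = 0.847) was 0.58 without that replicate, 0.23 without replicate 2 and 0.22 without replicate 3 of its group, and the second Trpc4 probe gave 0.34. Trpc1, which joins Trpc4 and Trpc5 in mixed channels, read -1.09, -0.88 and -1.04 against -0.78, -0.93 and -0.80, with overlap and a difference of -0.17. Trpc6, a channel gated by diacylglycerol, differed by -0.13 with an SE of 0.18.

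**Figure D2:**
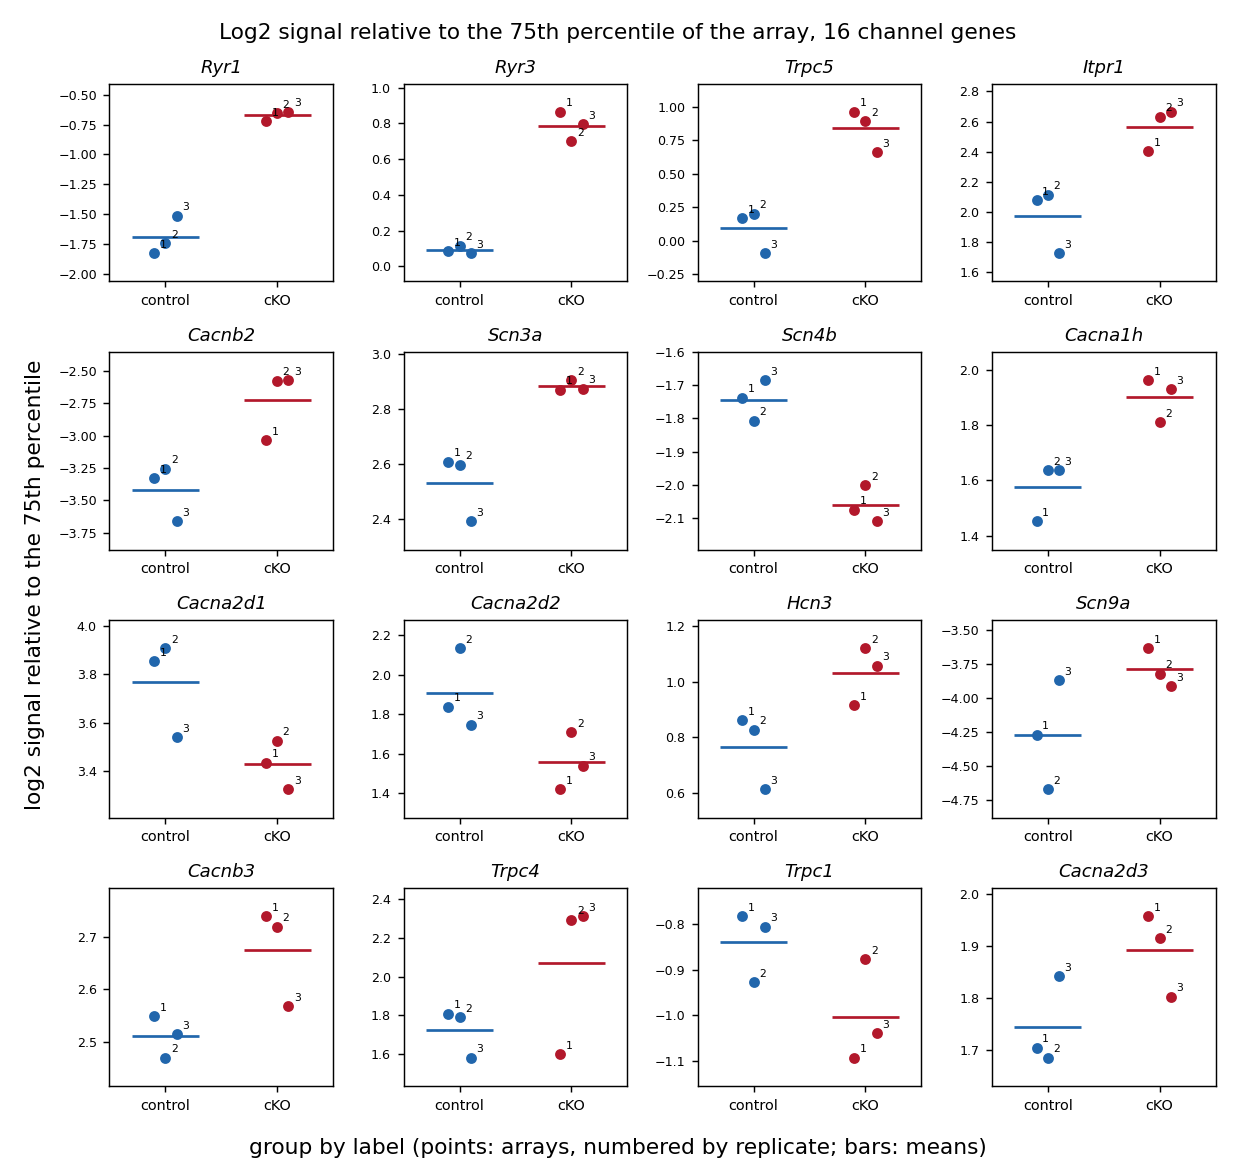
Log2 processed signal minus the 75th percentile of its array (y axis, own scale per panel) on each of the 6 arrays for 16 channel genes, by group (x axis); points are arrays numbered by replicate and bars are group means. Ryr1, Ryr3 and Trpc5 show the widest gaps between the groups, and control replicate 3 is the lowest control point for Itpr1, Cacnb2, Trpc5 and Cacna2d1.

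The pore-forming alpha1 subunits of calcium channels were evenly divided, with 4 higher and 4 lower by sign among 8 and a median of 0.02. Cacna1h, a T-type pore that opens at low voltage and supports bursting, read 1.96, 1.81 and 1.93 against 1.45, 1.64 and 1.64. The groups did not overlap, and the difference was 0.32 (SE 0.10, adjusted p = 0.441). Its second probe gave 0.10 with overlapping groups. The other T-type pores, Cacna1g and Cacna1i, differed by -0.04 and -0.14, and the second Cacna1i probe had the opposite sign at 0.10. Among the L-type pores, which link depolarisation to gene expression, Cacna1d differed by 0.10 without overlap. The gap was narrow, with the lowest array labelled cKO at -0.22 and the highest control at -0.23. On the second Cacna1d probe, also at 0.10, the groups overlapped. Cacna1c differed by 0.09 on 1 probe and -0.03 on the other. On the first, the mean labelled cKO was 2.89 against controls of 2.83, 2.98 and 2.58, so its sign leaned on control replicate 3. Cacna1b, the N-type pore of presynaptic terminals, differed by 0.08, and Cacna1e, the R-type pore, by -0.11. Cacna1a, the P/Q-type pore that takes over fast transmitter release as synapses mature, read 2.09, 2.33 and 2.05 against 2.60, 2.69 and 2.01. Control replicate 3 lay with the arrays labelled cKO and the other 2 controls lay above all of them. The difference was -0.28 on either of its probes (SE 0.20 for the brighter). On the brighter it was -0.49 without control replicate 3, -0.20 without control replicate 1 and -0.15 without control replicate 2.

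The alpha2delta subunits split within the class. Cacna2d1 and Cacna2d2, the subunits that bind gabapentinoid drugs, were lower by sign, and Cacna2d3, which does not bind them with high affinity, was higher. Cacna2d1 read 3.43, 3.52 and 3.32 against 3.85, 3.91 and 3.54. The groups did not overlap, although the highest array labelled cKO was close to control replicate 3. The difference was -0.34 (SE 0.13, adjusted p = 0.579), and a second probe, also without overlap, gave -0.38. Cacna2d2, the gene mutated in the ataxic ducky mouse, read 1.42, 1.71 and 1.54 against 1.84, 2.13 and 1.75. Its difference was -0.35 (SE 0.14, adjusted p = 0.612), and the second probe, also without overlap, gave -0.50. Cacna2d3 read 1.96, 1.91 and 1.80 against 1.70, 1.69 and 1.84. Here control replicate 3 was above the lowest array labelled cKO, and the difference was 0.15 (SE 0.09, adjusted p = 0.879).

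The beta subunits bind the alpha1 pore from inside the cell, and their class median was 0.13, with 3 of 4 genes higher by sign. Cacnb2 read -3.04, -2.57 and -2.57 against -3.33, -3.26 and -3.66, dim but well above background on all 6 arrays. The groups did not overlap, and replicate 1 labelled cKO was nearest to the controls. The difference was 0.69 (SE 0.17, adjusted p = 0.332), or 1.61-fold. A second Cacnb2 probe gave 0.63 with overlapping groups. Cacnb3 read 2.74, 2.72 and 2.57 against 2.55, 2.47 and 2.51, a narrow separation, with a difference of 0.16 (SE 0.09, adjusted p = 0.813). Cacnb1 differed by 0.09. Its mean on the arrays labelled cKO, -1.24, lay below control replicates 1 and 2 (-1.22 and -1.21). The positive sign, counted among the 3 of 4, thus rested on control replicate 3 (-1.56). Cacnb4, the gene mutated in the lethargic mouse, differed by -0.22, on a probe that shares a run of 20 bases with probes of 9 other names.

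The sodium channel alpha subunits were higher by sign for 5 of 6 genes, with a median of 0.09. Scn3a, the pore that predominates before birth and recedes as neurons mature, read 2.87, 2.91 and 2.88 against 2.61, 2.60 and 2.39. The values labelled cKO almost coincided and all lay above the controls. The difference was 0.35 (SE 0.10, adjusted p = 0.378), and all 4 of its probes separated the groups, with differences from 0.27 to 0.35. Scn2a1 (now Scn2a), found early at the axon initial segment, differed by 0.15 with overlapping groups. Scn8a, the later pore of initial segments and nodes, gave 0.03, -0.17 and -0.11 on its 3 probes, and the first of these shares a run of 20 bases with probes of 3 other genes. Scn1a, a pore on which fast-spiking interneurons depend, differed by -0.02, with a sign that depended on the arrays used: it was -0.21 without control replicate 3, 0.09 without control replicate 1 and 0.07 without control replicate 2. Scn9a, best known from sensory neurons, was dim, at -3.63, -3.82 and -3.91 against -4.27, -4.67 and -3.87. The groups overlapped through control replicate 3. The difference of 0.48 (SE 0.21, adjusted p = 0.668) was 0.68 without that array and 0.28 without control replicate 2. Scn7a, an atypical sodium-sensing channel, differed by 0.02 with an SE of 0.23.

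Of the sodium channel auxiliary subunits, Scn4b and Scn2b were lower by sign and Scn3b higher. Scn4b, linked to resurgent sodium current, read -2.07, -2.0 and -2.11 against -1.74, -1.81 and -1.68, which separated the groups. The difference was -0.32 (SE 0.09, adjusted p = 0.379). Scn2b, which is bound to the pore by a disulphide bond, read 1.95, 1.92 and 1.45 against 2.28, 2.32 and 1.63. Replicate 3 was the lowest array of each group, and the groups overlapped. Its difference was -0.30 (SE 0.23). It was -0.52 without control replicate 3, -0.20 and -0.18 without control replicates 1 and 2, and -0.14 without replicate 3 labelled cKO. Scn3b differed by 0.10.

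Only 2 of the 3 listed HCN channels could be tested. Hcn3 read 0.92, 1.12 and 1.06 against 0.86, 0.83 and 0.61, a separation by a small gap, with a difference of 0.27 (SE 0.11, adjusted p = 0.653). Hcn2, a main carrier of the pacemaker current in thalamus and cortex, differed by -0.04 (SE 0.12). Hcn4, the pacemaker channel of the sinoatrial node and of thalamic relay cells, was well above background on 0 of 6 arrays, so no fold is given.

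**Figure D3:**
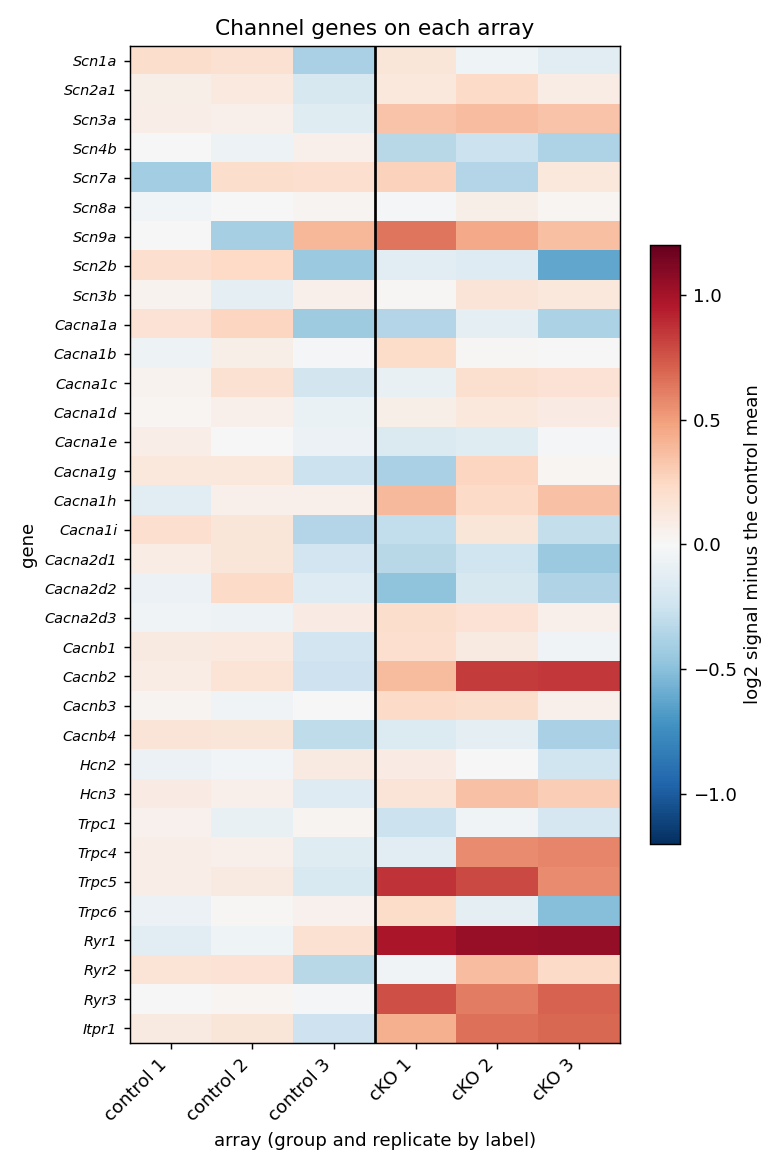
Log2 signal of each channel gene tested (rows) on each of the 6 arrays (columns, by label) minus that gene's control mean, as colour; the black line divides the groups. Ryr1, Ryr3, Trpc5 and Itpr1 are red on all 3 arrays labelled cKO, and many genes are blue on control replicate 3.

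The control arrays were not alike for these genes. Control replicate 3 lay more than 0.25 below the mean of the other 2 controls for 14 of the 34 channel genes (41.2%), against 11.1% of all genes. The 14 were Cacna1a, Cacna1c, Cacna1g, Cacna1i, Cacna2d1, Cacnb1, Cacnb2, Cacnb4, Scn1a, Scn2a1, Scn2b, Trpc5, Ryr2 and Itpr1. Its median deviation over the channel genes was -0.21, whereas over all genes it was 0.07. Measured in the same way within its group, any other array lay below for 1 to 5 channel genes. Markers of the striatum, which lies beneath the cortex, were higher on the same array: their summed signal was 19.1 on control replicate 3 and 9.56 and 9.42 on control replicates 1 and 2. Ppp1r1b (DARPP-32) read 2.76 there against 0.79 and 0.77, and Rgs9 read 2.63 against 1.5 and 1.39. Dlx1 and Dlx2, which mark interneurons and their striatal relatives, read 1.28 and 1.60 there, where the other controls read 0.58 to 0.59 and 0.59 to 0.76. The part of these markers in the channel values of that array was not tested. Without that array the groups of 20 channel genes did not overlap, 12 higher and 8 lower, where 28.0% of all genes did not overlap (16.1% higher, and 3916 of the 32697 genes lower). The 8 lower genes were then Cacna1a, Cacna1e, Cacna2d1, Cacna2d2, Cacnb4, Scn1a, Scn2b and Scn4b. Without it Ryr1 differed by 1.12, Ryr3 by 0.69, Trpc5 by 0.65 and Cacnb2 by 0.57, and 0 channel genes passed the adjusted threshold.

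Rows 1 and 2 of the slide each held 1 array of either group, so a difference could be read within a row, with no replicate. In both rows the array labelled cKO lay in slide column 2 and the control in column 1, so column and group cannot be told apart there. Within rows 1 and 2 Ryr1 differed by 1.18 and 1.1. Ryr3 differed by 0.62 and 0.68 there. For Itpr1 both values were 0.55, and for Trpc5 they were 0.72 and 0.46. Cacna2d2 was less even, at -0.13 and -0.59. The slide and the scan were common to all 6 arrays. Against the single control without Y-linked signal, Ryr1 differed by 1.07, Ryr3 by 0.67, Itpr1 by 0.45, Cacnb2 by 0.53, Cacna2d1 by -0.48 and Cacna2d2 by -0.58. Also in that comparison the groups of 13 channel genes were separated upward and 8 downward, where 24.5% and 20.8% of all genes were, 45.2% in all.

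Genes that act with these channels were examined in 3 further lists. Of 23 other sodium and calcium channel genes, 22 were tested, 9 were higher and 13 lower by sign, and the median was -0.05. None passed the adjusted threshold, and 2 (9.09%, against 7.54% of all genes, a share near the background) had an unadjusted p under 0.05, both lower: Itpr2, the inositol trisphosphate receptor of astrocytes, at -0.51 (adjusted p = 0.199) and Cacng5, a regulator of AMPA receptors, at -0.40 (adjusted p = 0.416). The sign of Itpr2 was thus opposite to that of Itpr1. Of 20 partners at the membrane and the axon initial segment, 12 were higher and 8 lower, with a median of 0.04. Here Stac2, which binds L-type channels, differed by -0.54 (adjusted p = 0.344) and Pex5l (TRIP8b), which controls the placement of HCN channels, by -0.45 (adjusted p = 0.407). The scaffold gene Nfasc differed by -0.21 and Fgf14, a modulator of sodium channels, by 0.29. Of 22 genes for calcium stores, pumps, exchangers and buffers, 7 were higher and 15 lower, with a median of -0.11 and 0 at an unadjusted p under 0.05. Atp2b2, a calcium pump of the plasma membrane, had the smallest p of these, with a difference of -0.41. Orai3, Stim2 and Camk2b followed at -0.24, 0.23 and 0.15.

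**Figure D4:**
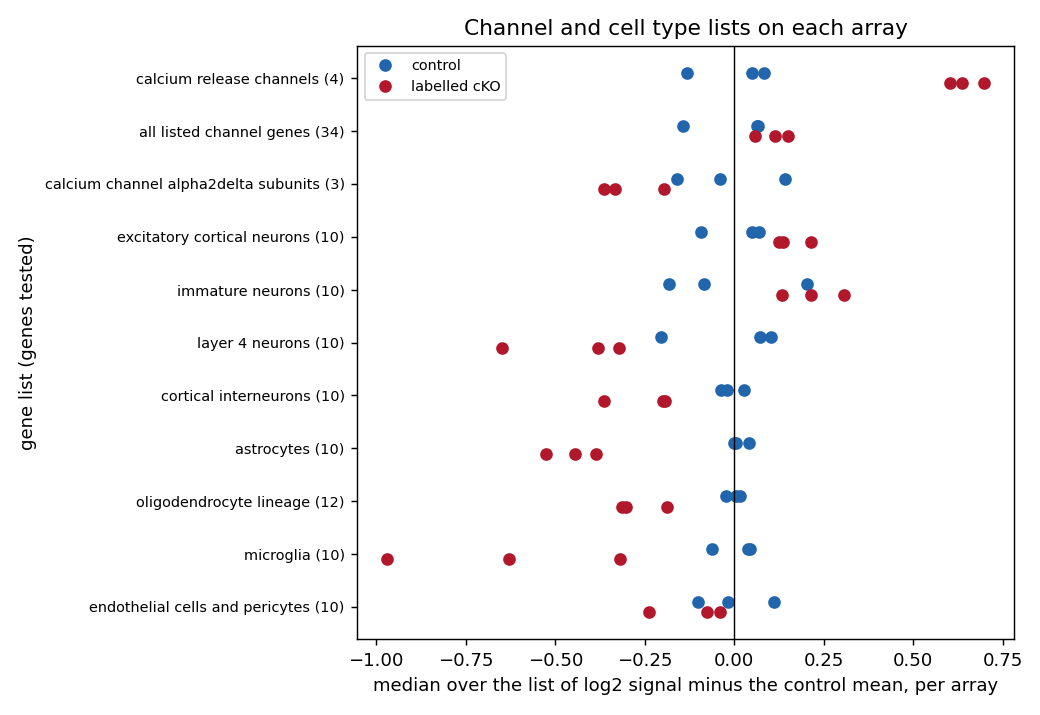
Median over each list of the log2 signal minus the gene's control mean (x axis), as 1 point per array, for the calcium release channels, all channel genes, the alpha2delta subunits and 8 cell type marker lists (y axis, genes tested in brackets). The 4 listed release channels lie between 0.60 and 0.70 on the arrays labelled cKO and between -0.13 and 0.08 on the controls. The astrocyte, microglia and layer 4 medians lie lower on the arrays labelled cKO.

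Markers of cell types in or near S1 are given beside these values; none of them passed the adjusted threshold (smallest adjusted p 0.074), and in a tissue extract fewer cells of a type and less RNA per cell cannot be told apart. Of 10 astrocyte markers, 10 were lower by sign on the arrays labelled cKO, with a median of -0.46, and their summed signal (in units of the array's 75th percentile) was 54.0 to 61.3 against 76.7 to 81.7. All 10 microglia markers were lower too, with a median of -0.64 and sums of 14.8 to 23.9 against 28.8 to 29.7. Of 12 markers of the oligodendrocyte lineage, 10 were lower (median -0.25, sums 126 to 145 against 150 to 186). Layer 4 neuron markers were lower for 8 of 10 (median -0.49, sums 16.4 to 23.6 against 23.4 to 28.5), and interneuron markers for 9 of 10 (median -0.26, sums 58.8 to 71.5 against 75.9 to 76.5). In the other direction, excitatory neuron markers were higher for 6 of 10 (median 0.23, sums 69.0 to 73.0 against 60.3 to 68.5) and immature neuron markers for 8 of 10 (median 0.23, sums 1083 to 1153 against 863 to 1017). Endothelial and pericyte markers were lower for 7 of 10 (median -0.10, sums 22.5 to 26.6 against 23.0 to 30.2). For neighbouring tissue, striatal markers were lower for 5 of 7 (sums 8.33 to 11.3 against 9.42 to 19.1, where control replicate 3 alone lay above the range of the arrays labelled cKO), thalamic markers for 6 of 6 tested (4.39 to 4.67 against 5.33 to 5.56), choroid plexus markers for 4 of 5 (0.615 to 1.17 against 0.782 to 1.60) and meningeal markers for 6 of 6 (10.6 to 32.1 against 20.4 to 31.5). Blood markers were higher for 3 of 3, with overlapping sums of 39.0 to 125 against 48.1 to 96.1. Markers of excitatory cortical neurons were well above background on all arrays. The choroid plexus marker Kl was so on 2 of the 3 arrays labelled cKO and on all 3 controls. For the 4 listed release channels the same sum was 9.79 to 11.2 against 6.40 to 8.11. For the alpha2delta subunits it was 16.4 to 18.5 against 18.6 to 22.6. The part of any cell type list in the channel differences was not tested.

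Promoter sequence from RefSeq (GRCm38.p6) was matched for 27 of the 35 genes, with 37 start sites among them. The 250 bases before the start are printed for Ryr1, the gene with the most extreme difference, and for Cacna2d1, 1 of the genes lower by sign, with CG pairs in capitals. Base composition was not compared between the genes higher and lower by sign. It can differ within 1 gene: of the 2 stretches of Cacnb2, 1 is 73.2% G or C with 30 CG pairs and the other 46.0% with 3. The Ryr1 stretch (chr7:29125152-29125401, minus strand) is 54.8% G or C and holds 6 CG pairs. The Cacna2d1 stretch (chr5:15934441-15934690, plus strand) is 82.4% G or C and holds 36. Over the 37 stretches the medians were 62.4% and 12 CG pairs, against 52.4% and 6 over all promoters.
Ryr1: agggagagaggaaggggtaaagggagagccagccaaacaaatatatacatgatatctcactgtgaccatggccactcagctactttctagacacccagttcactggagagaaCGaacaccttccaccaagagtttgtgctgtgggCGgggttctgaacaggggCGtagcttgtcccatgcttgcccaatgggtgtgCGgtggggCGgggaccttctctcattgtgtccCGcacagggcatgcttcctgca
Cacna2d1: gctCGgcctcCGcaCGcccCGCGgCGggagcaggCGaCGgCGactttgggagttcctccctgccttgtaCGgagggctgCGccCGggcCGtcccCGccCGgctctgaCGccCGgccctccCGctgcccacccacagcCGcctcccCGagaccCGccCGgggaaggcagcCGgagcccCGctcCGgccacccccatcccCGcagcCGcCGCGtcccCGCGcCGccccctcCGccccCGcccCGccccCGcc
The letters TAATTA, a core of homeodomain binding sites, were searched on both strands together with TGACGTCA, the cyclic AMP response element, which cannot overlap it. TAATTA occurs in 0 of the 37 stretches from channel promoters and in 4.84% of 32851 promoters, and TGACGTCA in 0 of 37 and in 1.55%. TATAAA, searched in the same way, occurs in 3 of 37 and in 12.4%. That TAATTA and TGACGTCA are missing from the windows bears only on the windows.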

How the data were processed

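Single-colour Agilent arrays of 3 control samples and 3 samples labelled cKO were read. Per the file headers, the deposited scanner files were written by Feature Extraction 10.5.1.1, and a processed intensity is the spot signal after background subtraction and spatial detrending, not normalized between arrays. The same deposited files hold flags (well above background, saturated, outlier) and probe coordinates on mm9. The deposited series matrix holds log2 values of the 55681 probes; compared with the scanner files, 95% of its values lie within 0.00835 of quantile-normalized log2 signals centred per probe. The medians of its columns run from -0.0064 to 0.00645. Scale and centring of this matrix are inferred from that match, and it served as an alternative.

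Control and outlier spots (112 to 198 per array) were left out, log2 processed signals were centred on each array's 75th percentile and spots of a probe were averaged. A probe was tested if well above background on at least 3 of 6 arrays (50030 probes), and a gene took its brightest tested probe, so 34 of 35 channel genes passed. Names were updated through RefSeq (GRCm38.p6): 28331 probes matched by accession, 428 by another accession, 2034 by symbol and 162 by synonym, and 24726 kept their name. Groups were compared by limma (3.58.1, R 4.3.3; lmFit and eBayes, two-sided), p-values were adjusted over 32697 genes by Benjamini-Hochberg, and the threshold was 0.05. The fit was also run on simulated data, whose outcome is not reported here and is not used for any result above. Alternatives covered normalization, background correction, probe filters, the variance model, array weights, terms for replicate number, slide row and Y-linked signal, the authors' matrix, and each array left out. The channel genes, the companion and marker lists and the tests were chosen with earlier results of these data known. Values per array are given for the 16 channel genes with the smallest p, with a few others named after their values were seen; all probes are given where a gene's probes differ in sign or by over 0.5, and up to 4 genes by p from each companion list. The number of arrays limits the precision.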

Additional observations from a re-analysis of the deposited data

How the results depend on the processing

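The count of channel genes with an adjusted p under 0.05 was 0, and it was 1 with quantile normalization, median centring or the authors' matrix (Ryr1, adjusted p = 0.041, 0.036 and 0.041), 2 with normexp under either scaling or with array weights (Ryr1 and Ryr3), and 3 with an intensity trend and robust variances (Ryr1, Ryr3 and Trpc5). At an adjusted p under 0.10 it was 2. It was 0 with each array left out in turn (0 to 0). Over all genes the count of 2 became 12 with quantile normalization or the authors' matrix, 24 with median centring, 74 and 73 with normexp (75th percentile and quantile), 106 with the trend, 441 with array weights, 11 with a filter on all 6 arrays, 78 at an adjusted p under 0.10, 1 without both arrays with Y-linked signal, 0 to 4 with an array left out, and 0 with no filter, a slide row term, a Y-linked signal term or the replicate block. Channel genes whose groups do not overlap numbered 13, 13 to 20 with an array left out and 21 without both arrays with Y-linked signal, an alternative added after the data were seen. Their median difference of 0.09 stayed between 0.01 and 0.12, and each of the 16 genes given by array kept its sign in all 22 alternatives (Ryr1 0.89 to 1.12, Ryr3 0.66 to 0.74, Trpc5 0.58 to 0.83, Itpr1 0.45 to 0.68, Cacnb2 0.45 to 0.84). The cause of the differing counts was not tested. Deviations of same-numbered samples had correlations across genes of -0.201, 0.083 and 0.172, and those of differently numbered samples ran from -0.272 to 0.241. Deviations from a mean of 3 arrays are tied to each other, so these values cannot decide whether the numbers pair samples. With the replicate block Ryr1 had an adjusted p of 0.331 (limma), and 0 channel genes passed. A block for slide or scan could not be fitted, since all arrays share both.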
